A study of Mus musculus with 4 samples.

Results

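The cytosolic ribosomal protein genes of CCR6+ group 3 innate lymphoid cells (ILC3) are described here. They are the 60 genes, of 19938 genes named on the microarray, whose only platform symbol follows the Rpl, Rps or Rplp naming pattern, with the kinases of the Rps6k family left out. Where a gene had more than 1 probe set, the one with the highest mean over the 4 arrays was used. The 60 genes comprise 22 of the small subunit, 35 of the large subunit and 3 of the ribosomal stalk. The RefSeq gene table holds 90 symbols of this pattern. The other 30 are not analysed here, and 18 of them are named only by probe sets that carry several gene symbols.

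The samples were 4 arrays of biotin-labelled total RNA from mesenteric lymph node cells of naive C57BL/6 mice, sorted as CD127+ CD90.2+ CCR6+ ST2- cells. They form 1 group, so no contrast between conditions was possible. The labels call the samples replicates without saying what was replicated (a mouse, a pool of mice or a sort), so part of the spread between arrays may be technical. In RNA of sorted populations, fewer cells of a type and less RNA per cell cannot be told apart.

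Each ribosome is built from a small subunit, which decodes the message, and a large subunit, which joins amino acids. The proteins coat a core of ribosomal RNA, and most are needed in equal number for every ribosome. In mammals most of their genes carry introns, many of which hold small nucleolar RNAs, and many processed copies of their messages are scattered through the genome as pseudogenes. Their messages are known for a start of pyrimidine letters, the 5' terminal oligopyrimidine (TOP) tract, through which mTOR signalling and the protein LARP1 control their translation. Resting lymphocytes make few ribosomes and raise their production on activation.

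A promoter was found in RefSeq for 48 of the 60 genes (build GRCm38.p6). The windows below run from 30 bases before the annotated start to 20 bases from the start on. Capitals mark a pyrimidine run near the start, from its first C on. A run was marked where a C within 10 bases of the start was followed by at least 4 letters that are C or T, and it can extend further upstream. The first 4 genes were chosen because the run covers the start, and the last 3 because they are copies described further on.
Rps6, chr4:86857348-86857397, minus strand: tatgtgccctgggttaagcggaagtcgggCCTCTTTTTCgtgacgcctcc
Rpl38, chr11:114668550-114668599, plus strand: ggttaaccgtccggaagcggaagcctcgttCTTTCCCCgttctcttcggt
Rpl28, chr7:4792935-4792984, plus strand: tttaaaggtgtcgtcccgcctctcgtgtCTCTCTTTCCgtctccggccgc
Rps15a, chr7:118116128-118116177, minus strand: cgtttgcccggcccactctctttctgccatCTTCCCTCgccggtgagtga
Rpl32l, chr10:20208409-20208458, plus strand: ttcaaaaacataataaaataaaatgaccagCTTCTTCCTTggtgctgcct
Rpl10l, chr12:66284382-66284431, minus strand: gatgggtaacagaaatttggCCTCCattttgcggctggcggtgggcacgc
Rpl3l, chr17:24727796-24727845, plus strand: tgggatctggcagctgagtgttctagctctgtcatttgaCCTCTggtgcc

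The annotated start base was itself a C followed by at least 4 such letters in 10 of the 48 genes (20.8%), against 467 of 17491 protein-coding genes in the same table (2.67%). Among the 10 are Rpl38 and Rps15a, whose runs begin at the start, and Rps6 and Rpl28, whose runs begin before it. A C of this kind lay within 10 bases on either side in 28 genes (58.3%), against 34.9% of protein-coding genes. Annotated starts are often a few bases from the used one, so the counts depend on the annotation. The letters CGGAAG, the core bound by ETS family factors, were searched on both strands of the 300 bases around the start after the sequences had been seen. They were present in 32 of the 48 genes (66.7%), against 23.5% of protein-coding genes. The letters AAGATGG, part of the YY1 motif, were present in 5 genes (10.4%), against 7.18%. These are matches of letters and not measured sites.

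On these arrays 58 of the 60 genes (96.7%) were above background, where 46.2% of all named genes were. A gene was called when few of 1237 background genes (olfactory, vomeronasal, trace amine and bitter taste receptors) had a mean as high, with the detection p adjusted over all named genes. The levels are log2 values, and the lowest mean called was 6.37. A stricter reading asked that a gene's lowest array lie above every value of 16 genes of other organs, which reached 8.03 for Mbp. That line rests on Mbp alone, and the next highest of them, Cryaa, reached 7.73. Of these 16 genes 7 were called, against 11 by limma's test of levels over the 95th percentile of background and 2 at an adjusted p under 0.02, so a call below 8.03 does not set a gene apart from genes of other tissues. By the stricter reading 51 of the 60 genes (85%) passed, against 15.7% of all named genes.

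The median level of the 60 genes was 12.22, beside 6.16 over all named genes and 7.73 over the genes above background. Only 74 named genes had a mean over 12, and 36 of them were ribosomal protein genes. These levels are those of the brightest probe set of each gene. More than 1 was on offer for 63.3% of the ribosomal protein genes, against 5.01% of all named genes, which raises the former more. With the lowest probe set, some of the 36 fall below 12, as Rplp0 at 10.50 and Rpl23 at 10.997. Brightness also depends on how well a probe set binds, so these levels rank no RNA amounts.

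**Figure D1:**
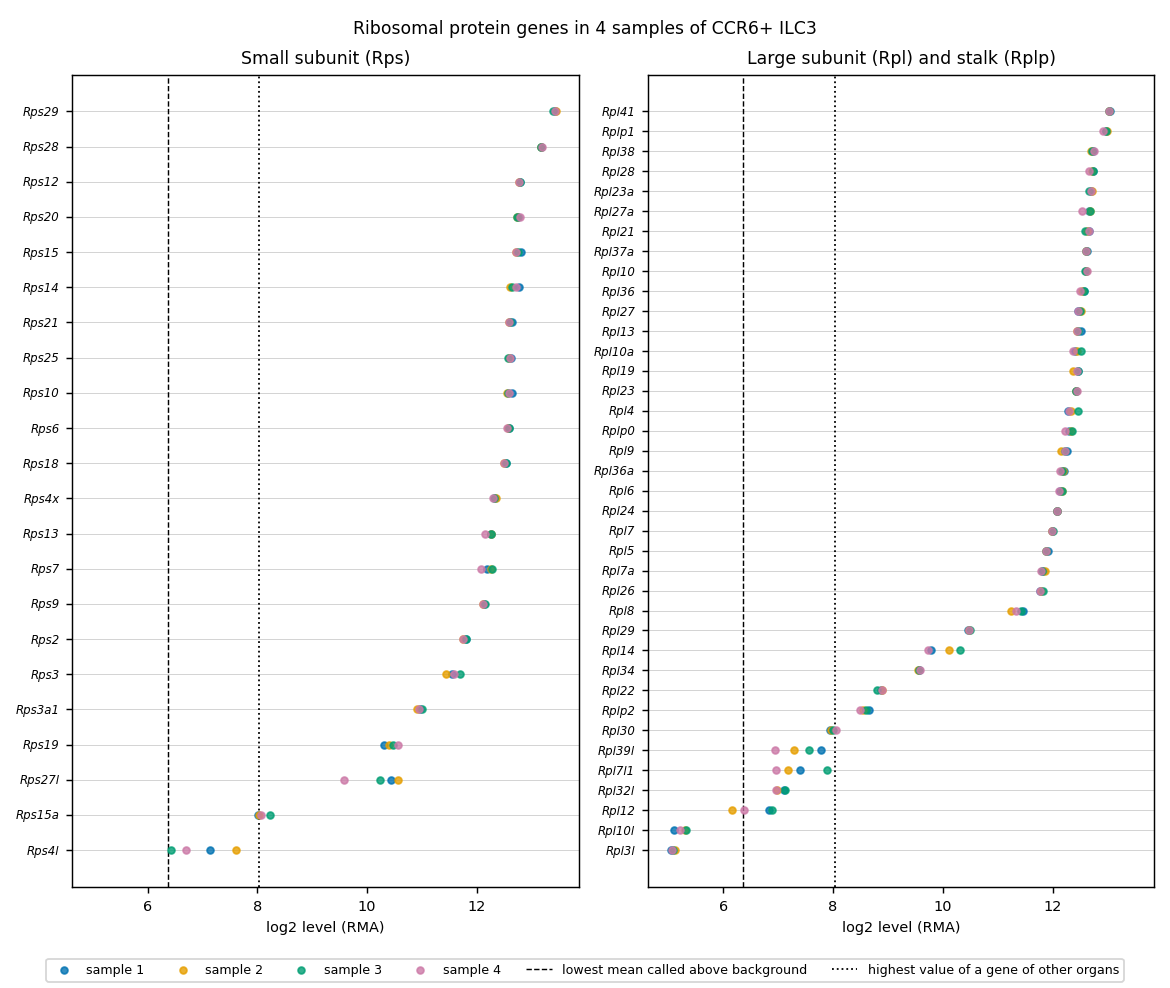
Log2 level of each ribosomal protein gene on each of the 4 arrays (points), with small subunit genes on the left and large subunit and stalk genes on the right, ordered by mean. The dashed line is the lowest mean called above background (6.37) and the dotted line the highest value of a gene of other organs (8.03). Most genes lie between 11 and 13.4 with the 4 points on top of each other, and Rpl10l and Rpl3l lie left of both lines.

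Among small subunit genes, all 22 were called and 20 passed the stricter reading, with a median level of 12.42. Rps29, a zinc-binding protein of the small subunit head, had log2 levels of 13.43, 13.44, 13.39 and 13.42 on arrays 1 to 4. Rps28, which lies near the exit of the message channel, had 13.18, 13.16, 13.17 and 13.18. For both genes the 4 arrays differed by 0.05 log2 units or less. Rps12 had 12.78, 12.77, 12.78 and 12.77. Rps6, which S6 kinase phosphorylates downstream of mTOR, had 12.59, 12.57, 12.59 and 12.55 and is one of the genes whose pyrimidine run is shown above. Rps3, which also acts in DNA repair, had 11.55, 11.45, 11.70 and 11.58, and Rps7 had 12.19, 12.26, 12.28 and 12.08. Rps3 was lowest on array 2 and Rps7 on array 4. Rps19, which is mutated in human Diamond-Blackfan anaemia, had 10.30, 10.39, 10.48 and 10.57. Its SD of 0.12 was wide for a gene of this family, and no array stood far from the next.

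Of the 35 large subunit genes 33 were called, 28 passed the stricter reading, and their median level was 12.15. Rpl41, the smallest ribosomal protein, had 13.04, 13.03, 13.03 and 13.03. Rpl38, needed in mice for translation of Hox messages, had 12.74, 12.69, 12.72 and 12.76. Rpl10, which is added late and helps the subunits join, had 12.61, 12.60, 12.59 and 12.62. The arrays overlapped closely for all of these genes. Rpl5, which binds 5S ribosomal RNA and, when free, the p53 regulator MDM2, averaged 11.89 ± 0.015 (mean ± SD over the 4 arrays, also below). Rpl4 had 12.28, 12.33, 12.46 and 12.30, and Rpl10a 12.41, 12.45, 12.52 and 12.37, with array 3 highest for both. Rpl8, near the centre where peptide bonds form, had 11.46, 11.24, 11.43 and 11.34. Rpl29 averaged 10.48 ± 0.02 and Rpl34 9.57 ± 0.01, so a narrow spread was not confined to the genes over 12. Rpl22, which mice need for the development of αβ T cells, had a mean of 8.86 ± 0.04 and was above the genes of other organs. Rpl30 at 7.99 ± 0.05 and, in the small subunit, Rps15a at 8.08 ± 0.10 were called but overlapped the values of Mbp.

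The stalk genes Rplp0, Rplp1 and Rplp2, whose products recruit translation factors to the large subunit, all passed both readings. Rplp1 had 12.97, 12.99, 12.97 and 12.92 on arrays 1 to 4, and Rplp0 had 12.31, 12.34, 12.35 and 12.23. Rplp2 had 8.65, 8.55, 8.60 and 8.49. In each of the 3 genes array 4 was lowest. The probe set of Rplp2 does not list a RefSeq transcript of the gene, and neither do those of Rps3a1 and Rpl12, while those of the other 57 genes do.

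Rpl12 encodes a protein at the base of the stalk and stood apart from the other ordinary subunits. Its only singly named probe set, 10471550, had 6.84, 6.16, 6.90 and 6.38, a mean of 6.57 ± 0.36, with arrays 1 and 3 higher than arrays 2 and 4. The gene was called with an adjusted detection p of 0.0412, against 0.0108 for the 49 brightest members, which is the smallest that the background genes allow. Without array 3 it was not called, at a mean of 6.46 and an adjusted detection p of 0.0515. The platform annotation ties this probe set to a cDNA clone and to no RefSeq transcript, and whether it reads the Rpl12 message was not tested.

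Copies and paralogs with an l in the symbol numbered 7 and held both genes that were not called. Rpl3l, the striated muscle counterpart of Rpl3, had 5.05, 5.12, 5.08 and 5.06, with an adjusted detection p of 0.223. Rpl10l, the testis counterpart of the X-linked Rpl10, had 5.09, 5.31, 5.32 and 5.22, with an adjusted detection p of 0.179. Neither gene reached the lowest called level on any array. Rpl39l, known from testis as the counterpart of Rpl39, had 7.78, 7.28, 7.57 and 6.95 and was called. So was Rpl7l1, a relative of Rpl7, with 7.398, 7.176, 7.889 and 6.957. Rpl32l, a copy whose annotated start carries a pyrimidine run, had 7.12, 6.98, 7.12 and 6.96. None of these 3 genes exceeded 8.03 on any array. Rps4l, a relative of the X-linked Rps4x, had 7.14, 7.61, 6.42 and 6.69, was called, and spanned 1.19 log2 units. Its other probe set had 6.71, 6.99, 6.55 and 6.70, again highest on array 2 and lowest on array 3. Rps27l, a paralog of Rps27 that p53 induces, had 10.44, 10.57, 10.24 and 9.58, and was the only 1 of the 7 to pass the stricter reading. Array 4 was lowest, and the 4 arrays spanned 0.991 log2 units, a fold of 1.99. The parent genes Rpl7 at 11.997 ± 0.0051, Rpl10 at 12.61 ± 0.01 and Rps4x at 12.32 ± 0.03 varied little, and Rpl3, Rpl32, Rpl39 and Rps27 are not analysed here. Paralogs and processed copies can share probe sequence with their parents, so the levels of the copies are uncertain, and the part of the parent message in them was not tested.

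The deposited values of the ribosomal protein genes differed little between arrays. Their median SD was 0.0325 log2 units, a fold of 1.023, beside 0.168 and a fold of 1.124 over all genes above background. An SD under 0.05 was found in 39 of 60 (65%), against 7.55% of genes above background. The smallest SDs among the 58 ribosomal protein genes called were those of Rpl24 at 0.0027, Rpl37a at 0.0034, Rpl23 at 0.0048, Rpl7 at 0.0051 and Rps12 at 0.0072. They are SDs of the probe set used. The other probe sets of Rpl24 had 0.0084 and 0.0094, that of Rpl23 had 0.0344, and those of Rpl7 had 0.016 to 0.0387. Rpl24 forms a bridge between the subunits, and its arrays read 12.09, 12.08, 12.08 and 12.08. The SD differed with level on these arrays, and for other genes its class median was 0.133 between 6 and 7, 0.186 between 7 and 9 and lower in the classes above 9. Levels were therefore also taken in classes. Between 12 and 13 the median SD was 0.03 for 33 ribosomal protein genes and 0.0551 for 33 other genes, and 5 of the 33 ribosomal protein genes lay above the median of the other genes. Between 11 and 12 it was 0.0267 for 7 ribosomal protein genes and 0.1003 for 125 other genes. Between 7 and 8 it was 0.223 for 4 ribosomal protein genes and 0.186 for 3165 other genes. All of these are SDs of the brightest probe set, and with the lowest probe set the median over the 60 genes was 0.0533. RMA includes quantile normalization, which makes the range of values alike on all arrays. Ribosomal protein genes were 36 of the 74 named genes with a mean over 12. The part of this step in their small SDs was not tested.

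**Figure D2:**
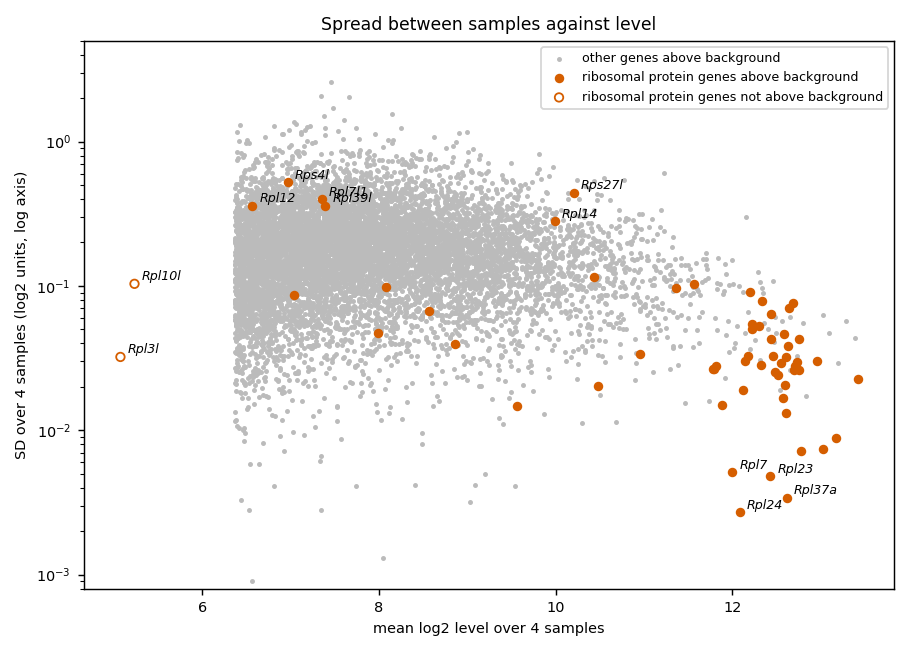
SD over the 4 samples (log axis) against mean log2 level for ribosomal protein genes (orange, open where not above background) and for the other genes above background (grey). The ribosomal protein genes gather at the lower right, with Rpl24 lowest at 0.0027, and Rps4l, Rps27l, Rpl7l1, Rpl39l, Rpl12 and Rpl14 lie among the other genes. The axis starts at 0.0008, and 12 other genes with a smaller SD are not shown.

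An SD over 0.25 was found in 6 genes, and the other 54 had an SD of 0.115 or less. They were Rps4l at 0.52, Rps27l at 0.44, Rpl7l1 at 0.40, Rpl39l at 0.36, Rpl12 at 0.36 and Rpl14 at 0.28. Copies or paralogs made up 4 of the 6. Rpl14, a large subunit protein, had 9.79, 10.12, 10.32 and 9.72. The 6 genes did not share 1 order of arrays. Rps4l and Rps27l were highest on array 2, Rpl7l1, Rpl12 and Rpl14 on array 3 and Rpl39l on array 1, while array 4 was lowest for 4 of them. The 11 B cell markers measured, all of them called, averaged 8.76, 7.88, 9.04 and 7.71 on arrays 1 to 4. Of the 6 genes, Rpl12, Rpl7l1 and Rpl39l were higher on arrays 1 and 3 than on arrays 2 and 4, while Rps4l, Rps27l and Rpl14 were not. The share of all genes above background with this order is not given here. T cell markers had list means between 7.48 and 7.82, myeloid markers between 6.00 and 6.39, and natural killer and ILC1 markers between 6.42 and 6.81. The part of B cells or other cells in these values was not tested.

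**Figure D3:**
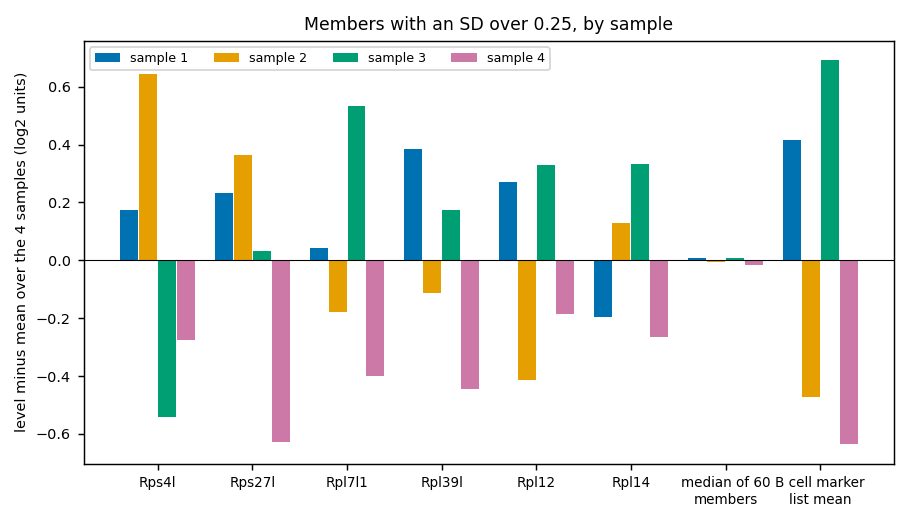
Level on each array minus the mean over the 4 arrays, in log2 units, for the 6 ribosomal protein genes with an SD over 0.25, for the median of all 60 genes and for the mean of the B cell marker list. Bars are single arrays. The median of the 60 genes stays within 0.016 of 0 on every array, while Rps27l is lowest on array 4 and Rps4l on array 3.

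The median deviation of the 60 genes from their own means was 0.00878, -0.00621, 0.00903 and -0.0160 log2 units on arrays 1 to 4, beside 0.00604, 0.00889, -0.00648 and -0.0104 over all genes above background. Array 4 was the lowest of the arrays for 24 of the 60 genes (40%), against 27.1% of genes above background. Array 1 was the highest for 22 genes (36.7%), against 26.4%. Under the other settings tried, array 3 stayed above 0 and arrays 2 and 4 below it, while array 1 changed sign with centring on the array medians and with quantile normalization. The shifts carry no test, since 1 group of 4 arrays gives no contrast.

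Many ribosomal protein genes were measured by several probe sets, which is a mark of the family on this platform. The 60 genes had 212 probe sets, and 38 genes (63.3%) had more than 1, against 5.01% of all named genes. Rps12 had 14. Of the 212, 157 had a mean over 12, and 19 repeated the values of another probe set to 5 decimals, as the 3 probe sets of Rpl41 did. Which probe sets also bind processed copies was not tested. The gap between the highest and lowest probe set of a gene had a median of 0.39 log2 units. It was over 1 in 4 genes. Rpl7a had probe sets at 11.82, 10.96 and 9.77. Rplp0 had them at 12.31 and 10.50, Rpl23, whose product also binds MDM2, at 12.43 and 10.997, and Rpl5 at 11.89, 11.60, 11.59, 11.58 and 10.73. The lower probe set of Rplp0 had 10.71, 10.54, 10.60 and 10.14 on arrays 1 to 4 and was, like the higher one, lowest on array 4. With the lowest probe set of each gene, 58 of 60 genes were still called, and the median SD was 0.0533. A further 239 probe sets name a gene of this pattern among several genes. Their median level was 12.17, and they were not assigned to a gene.

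**Figure D4:**
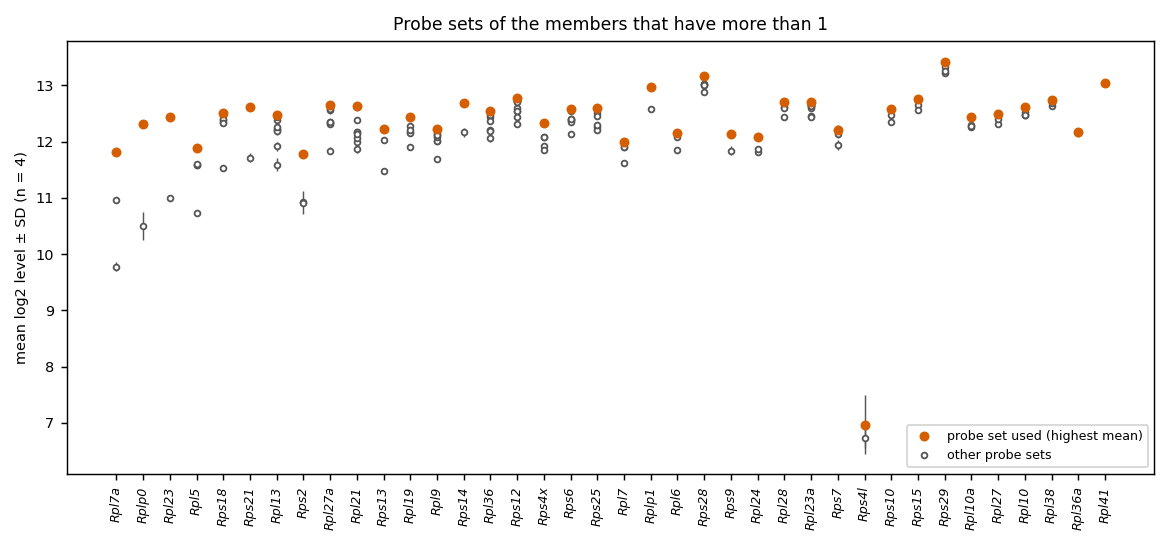
Mean log2 level of every singly named probe set of the 38 ribosomal protein genes that have more than 1, with SD over 4 arrays as bars, ordered by the gap between highest and lowest. Orange points are the probe sets used. Rpl7a, Rplp0, Rpl23 and Rpl5, at the left, span over 1 log2 unit, and the 3 probe sets of Rpl41, at the right, coincide.

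The 60 genes lie on 17 chromosomes, with 8 each on chromosomes 7 and 17. Rpl10, Rpl36a and Rps4x are on the X chromosome. According to the RefSeq table, which gives no strand, 20 small nucleolar RNA genes lie within these genes, and 12 of them, in 9 host genes, had a probe set of their own. Small nucleolar RNAs guide chemical changes of ribosomal RNA and are usually released from introns of the host transcript. Of the 12, 7 were called (58.3%), against 64.3% of the 42 other small nucleolar RNA genes measured. Snora3 in Rpl27a had 10.67, 10.41, 10.13 and 9.62 on arrays 1 to 4, and Snora52 in Rplp2 had 9.65, 9.48, 9.59 and 10.18. Array 4 was thus lowest for Snora3 and highest for Snora52.

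All 12 small nucleolar RNA genes had a larger SD than their host gene, by 3.14 to 104.71 times. All but Snora52 also had a lower mean level than their host, and the SD differed with level on these arrays. The part of level in these ratios was not tested. The largest ratio, of Snora21 in Rpl23, depends on the probe set of the host. The one used had an SD of 0.0048, and the other probe set of Rpl23 had 0.0344. Their median SD was 0.464, beside 0.0335 for the 9 hosts and 0.440 for the other small nucleolar RNA genes. Snord73a in Rps3a1 had 8.18, 5.55, 4.70 and 4.598, while Rps3a1 stayed at 10.96 ± 0.03. Snord73b in the same host had 4.95, 4.16, 6.74 and 5.76. Snord42a in Rpl23a had 5.63, 4.85, 5.15 and 7.77, with Rpl23a at 12.69 ± 0.03. Snord15b in Rps3 had 8.03, 6.70, 6.89 and 6.94, with Rps3 at 11.57 ± 0.10. Array 1 was highest for Snord73a and Snord15b, array 3 for Snord73b and array 4 for Snord42a, so no 1 array accounts for the spread. The means of Snord73a, Snord73b and Snord42a did not pass the detection test.

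**Figure D5:**
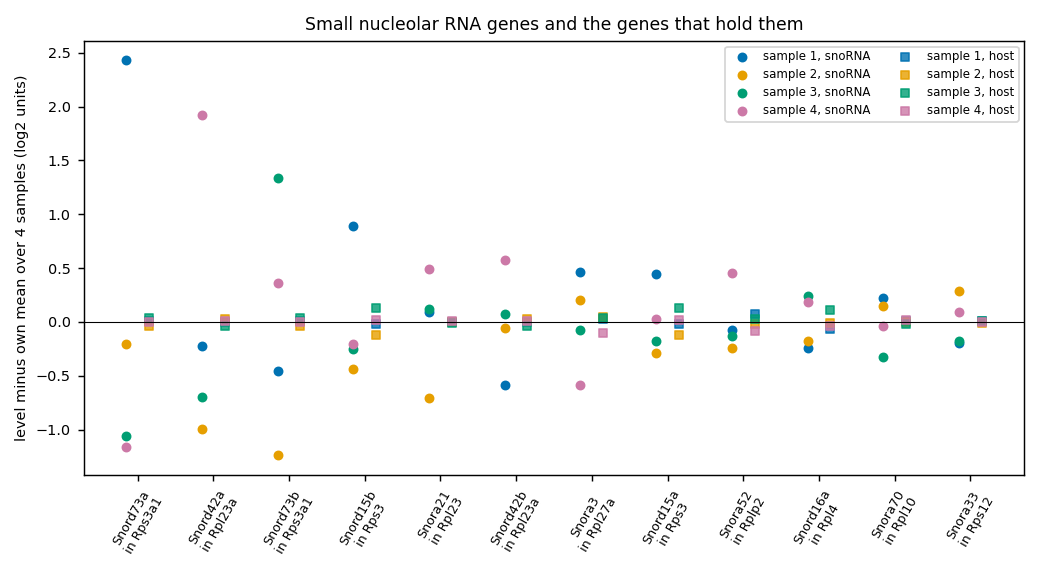
Level on each of the 4 arrays minus the gene's own mean, in log2 units, for 12 small nucleolar RNA genes (circles) and for the ribosomal protein gene that holds each one (squares). The circles spread far more than the squares, most of all Snord73a, highest on array 1, and Snord42a, highest on array 4.

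Genes around ribosomal protein synthesis were examined as lists. Rpsa and Fau, ribosomal proteins whose symbols fall outside the naming pattern, were called at 12.66 ± 0.06 and 12.21 ± 0.05. Of 13 translation factors and other genes with TOP messages, 13 were called, among them Eef1a1 at 12.73 ± 0.03, Tpt1 at 12.66 ± 0.03 and Pabpc1, the poly(A)-binding protein, at 11.93 ± 0.05. Their median SD was 0.102. Of 17 genes listed for mTOR control of these messages, 16 were called. The list also held Myc, Max, Larp4 and Larp4b. Larp1, which binds the TOP start, was at 9.59 ± 0.04 and Eif4ebp2, a repressor of cap-dependent translation, at 9.98 ± 0.17, while its relative Eif4ebp1 was not called at 6.13 ± 0.26. The pseudogenes Rpl14-ps1 at 9.69 ± 0.03 and Rps19-ps3 at 7.33 ± 0.10, were called as well.

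Ribosome biogenesis genes were called in 34 of 37 cases, with a median level of 7.89 and a median SD of 0.188. Ncl, the nucleolar protein nucleolin, was at 11.06 ± 0.05, Taf1d, part of the RNA polymerase I initiation complex, at 11.03 ± 0.08, and Nop10, of the pseudouridylation complex, at 10.29 ± 0.27. Bop1 and Bysl, which act in large and small subunit maturation, were not called at 6.36 ± 0.14 and 6.33 ± 0.28. Mitochondrial ribosomal protein genes were called in 76 of 77 cases, with a median level of 8.14 and a median SD of 0.218. Mrpl30 was at 10.49 ± 0.20 and Mrps21 at 10.20 ± 0.25, and Mrps10 was not called at 6.16 ± 0.16. In each of these lists the share called was above the 46.2% of all named genes.

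Of 8 ILC3 markers measured, 8 were called, with list means between 11.21 and 11.27 on the 4 arrays. Il7r, which encodes CD127, was at 12.56 ± 0.06 and Thy1, which encodes CD90, at 11.36 ± 0.15. Il7r, Thy1 and Ccr6 encode proteins by which the cells were sorted, so their calls are no independent check of the label. The marker lists of other cells were called in 11 of 11 cases for B cells, 9 of 11 for T cells, 5 of 8 for natural killer cells and ILC1 and 2 of 8 for myeloid cells. The myeloid count was 4 without array 2, without array 4 and by limma, and the natural killer and ILC1 count was 3 with olfactory receptors alone as background. By the stricter reading 2 of 11 B cell and 3 of 11 T cell markers passed. So did 0 of 8 natural killer and ILC1 and 0 of 8 myeloid markers, against 8 of 8 ILC3 markers. Of all named genes 46.2% were called and 15.7% passed the stricter reading. Ribosomal protein genes are used by every one of these cell types, so their levels cannot be assigned to ILC3 alone.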

How the data were processed

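The deposited table holds log2 levels of 35556 probe sets for 4 samples. Per the submitters' processing notes the authors used RMA, a method of background correction, quantile normalization and probe summary. The version of RMA and the build are not stated in the sources used here. GEO's platform annotation gave 1 symbol to 21789 probe sets, several to 1621 and listed no gene for 12146. Of the probe sets with 1 symbol, 21698 were matched to RefSeq (GRCm38.p6) by gene identifier and took the symbol given there, whether or not it differed. A gene took its probe set with the highest mean.

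The one-sided detection p counted the background genes (of 1237) whose mean equalled or exceeded the gene's, with 1 added to count and total, so that its floor was 0.000808. It was adjusted by Benjamini-Hochberg over 19938 named genes, with calls at 0.05. Of the background genes 27 were called. The alternative test used limma 3.58.1 in R 4.3.3, other steps Python 3.11.15. Tests were tried on simulated data. The number of arrays limits precision.

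Members and gene lists were chosen with earlier results of these data known. The rule for named genes took members that were not called, copies and their parents, the 5 highest and 5 lowest called, the 5 largest and 5 smallest SDs, gaps between probe sets over 1 and members with 1 array apart. It also took, in each list, up to 4 called genes and up to 2 that were not. Other genes named were chosen after their values were seen. Protein sequences were not used here, so the planned comparison of paralog proteins was not made.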

Additional observations from a re-analysis of the deposited data

Results flagged for a closer look

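In 8 of 118 genes tested, 1 array lay apart from the other 3 by more than Dixon's critical value (95%) allows, and chance gives about 1 in 20. The genes tested were the 60 ribosomal protein genes and the other genes taken by the rule for named genes. The remaining genes of the lists were not tested. Among the ribosomal protein genes, 3 of 60 were so marked. Rps13, a small subunit protein, was at 12.15 on array 4, while the other arrays lay between 12.25 and 12.26. Rpl27a was at 12.54 on array 4, with the others between 12.67 and 12.69. Rpl24 was at 12.09 on array 1, where all 4 arrays lay within 0.0057 log2 units. The other 5 were list genes. Larp1 was at 9.53 on array 4, Cd3g at 9.51 on array 3, Adgre1 at 7.003 on array 3, Ckm at 7.12 on array 3 and Prm1 at 6.15 on array 4.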

How the results depend on the processing

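The count of 58 genes above background came out at 58 under every alternative except 2. It was 57 without array 3, which loses Rpl12, and 53 at an adjusted p under 0.02, which loses Rpl12, Rpl32l, Rpl39l, Rpl7l1 and Rps4l. limma's test against the 95th percentile of background also called 58, where it called 53.5% of all named genes. Of 24 members named by rule, 19 kept their call under all 12 alternatives. The count of 51 genes by the stricter reading was the same with other probe sets, other normalization and each array left out. The median SD, 0.0325, was 0.0533 with the lowest probe set of each gene and ranged from 0.0276 to 0.034 when 1 array was left out. Centring the arrays on their medians gave deviations of -0.00541, -0.0216, 0.0332 and -0.0106 on arrays 1 to 4, and array 1 was at -0.00024 after quantile normalization. Arrays 2 and 4 stayed below 0 and array 3 above it throughout. Counts of small lists moved more. Genes of other organs were called in 11 of 16 cases by limma and when every array had to exceed the 95th percentile of background, and in 2 at an adjusted p under 0.02, against 7. Myeloid markers were called in 4 of 8 cases without array 2, without array 4, by limma and under that rule on every array, and in 1 at an adjusted p under 0.02, against 2. Natural killer and ILC1 markers were called in 3 of 8 cases with olfactory receptors as background and at an adjusted p under 0.02, against 5, and 1 of 2 pseudogenes was called at that threshold. No paired analysis was possible because the series has 1 group.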
